A study of Homo sapiens with 15 samples.

Results

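The 9 genes MDM2, MDM4, GDF15, SESN1, FAS, TP53I3, ZMAT3, RRM2B and BTG2 were examined as regulators and direct targets of the transcription factor p53. They were picked out by gene symbol. Each symbol matched 1 Ensembl identifier, so the members were 9 of the 60649 genes counted in each library. RNA was sequenced from HSC-5 cells, an established line from a squamous cell carcinoma of the skin, with 3 biological replicates in each of 5 conditions. The study asked what the loss of the arginine methyltransferase PRMT5 or of its partner WDR77 does to gene expression in these cells. In sgNeg the genotype was labelled WT, in sgPRMT5-1 and sgPRMT5-2 as a PRMT5 knockout, and in sgWDR77-1 and sgWDR77-2 as a WDR77 knockout. Each of the latter 4 conditions had a different sgRNA, with 2 sgRNAs for each gene. The treatment label was neomycin in all 15 libraries, sgNeg included. The study's methods describe sgRNAs carried into Cas9-expressing cells with lentivirus for its competition assays. For these libraries the paper states that the knockouts were complete and were checked by qRT-PCR, and no isolation of clones is described. The qRT-PCR it shows for HSC-5 is of sgPRMT5-1 and sgWDR77-2.

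The protein p53 is kept scarce in unstressed cells and is stabilized by DNA damage, failed ribosome assembly and other stresses, after which it activates genes of growth arrest, repair and cell death. MDM2 tags p53 for degradation and is itself induced by p53, which closes a negative feedback loop, whereas MDM4 binds p53 and restrains it as a transcription factor. PRMT5 and WDR77 together methylate proteins of the spliceosome and p53, and skipping of an exon of MDM4 after loss of PRMT5 is known from other cells. In squamous cell carcinomas of the skin p53 is often altered, and the paper states that HSC-5 and its other lines carry mutations that inactivate p53. The levels of the targets are therefore given as mRNA levels and not as a measure of p53 activity, and p53 itself was not analysed here.

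Promoter windows from RefSeq (GRCh38.p14, 250 bases before to 50 bases after a start site) were searched for p53 motifs, since p53 acts on its targets by binding near them. Entries were found for 8 members, with 16 windows in all, and the set of windows used held none for RRM2B. The motif was the p53 half-site consensus without mismatch on both strands, and it was found in 2 windows, 1 each of SESN1 and FAS. Of all 35116 windows, 6.63% held it. A looser search, added after the sequences were seen, took adjacent pairs of half-sites with up to 3 mismatches in all, which 5.2% of all windows held. It found such pairs in windows of MDM2, GDF15, SESN1 and FAS. Stretches of an MDM2 promoter (chr12:68808903-68809000, plus strand), a SESN1 promoter (chr6:109008998-109009057, minus strand) and a FAS promoter (chr10:88991304-88991333, plus strand) are printed to show these pairs, which the capitals mark. Each stretch lies inside the annotated bounds of its gene.
MDM2: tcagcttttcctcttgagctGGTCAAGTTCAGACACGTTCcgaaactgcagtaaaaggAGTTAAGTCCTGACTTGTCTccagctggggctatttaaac
SESN1: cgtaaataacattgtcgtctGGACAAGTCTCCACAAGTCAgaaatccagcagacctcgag
FAS: ctcctGGACAAGCCCTGACAAGCCAagcca
The pairs of MDM2 had 2 and 3 mismatches and ended 74 and 36 bases before the nearer start site. That of SESN1 lay in 1 of its 3 windows, had 3 mismatches and ended 29 bases before the start site of that window. The pair of FAS also lay in 1 of its 3 windows and had 2 mismatches. It ended 102 bases before the start site of that window, inside annotated exons, and the gene of these exons was not recorded. In SESN1 and FAS, 1 of the half-sites in the pair was exact. In the window of TP53I3 the pentamers TGTCC and TGCCC were searched as a run on both strands, and the longest run was 1, while runs of 2 or more were present in 0.96% of all windows. These matches describe letters in the windows and do not show that p53 binds there.

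The reads counted on genes numbered 5146711 to 6730428 per library. Of the listed reads, 2.75% to 7.16% lay outside genes, with the highest share in sgNeg replicate 2. Among replicates, those of sgWDR77-1 were the least alike, since replicate 1 differed from replicates 2 and 3 with a chi-square of 12.5 and 17.7 per degree of freedom, against 3.21 between those. Levels are given as CPM, the counts per 1000000 reads on genes after scaling by TMM, the trimmed mean of log ratios between libraries. All 9 members passed the filter of a mean normalized count of at least 3, which left 14056 genes for the test. The test was limma voom with all 15 libraries in a single model, and a gene is called where the p-value adjusted by Benjamini-Hochberg over all tested genes is under 0.05. Counts per library ran from 18 for TP53I3 to 1398 for GDF15, so TP53I3 had the largest counting error relative to its level. Other variation between replicates is not covered by this. The labels name a stranded protocol and the paper's methods an unstranded kit, and the strand setting of the counting is not given. Counts of FAS, MDM2 and TP53I3 are therefore less certain, since on the opposite strand they overlap the protein-coding genes ACTA2, the carboxypeptidase gene CPM, and FAM228B, respectively. FAS also overlaps STAMBPL1 on its own strand, which does not depend on the setting. The other 6 members overlap no protein-coding gene in the annotation. On the opposite strand, SESN1 overlaps a long noncoding RNA and MDM4 a processed pseudogene.

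The targeted genes were checked before the members. PRMT5 mRNA stood at 59.1, 49.6 and 67.8 CPM in sgNeg, at 33, 35.8 and 41.4 CPM in sgPRMT5-1, and at 44.2, 44.5 and 39.4 CPM in sgPRMT5-2. All 6 libraries of the PRMT5 sgRNAs were below all sgNeg libraries, and the log2 fold changes were -0.67 (adjusted p = 0.0057) and -0.45 (adjusted p = 0.0114). WDR77 mRNA stood at 125, 114 and 119 CPM in sgNeg, at 30.8, 52 and 53.3 CPM in sgWDR77-1, and at 26.6, 24.9 and 22 CPM in sgWDR77-2. The log2 fold changes of WDR77 were -1.43 (adjusted p = 2.02e-06) and -2.29 (adjusted p = 6.92e-09), with all 6 libraries below sgNeg. These are mRNA levels, and the proteins were not measured in these files. From Western blots of HSC-5 cells with these sgRNAs, the paper reports that depletion of either gene reduced both proteins. In bulk RNA, fewer cells of a type and less RNA per cell cannot be told apart, which holds for every difference below.

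Markers were read to check the identity of the cells, and all 9 squamous keratinocyte markers were detected in every library, with a summed level of 2280 to 3250 CPM and KRT17 as the most abundant at 690 to 1450 CPM, but KRT14 was near 0 with 1 to 4 counts per library. Of the 8 tested markers, 3 fell in all 4 knockout conditions, with 3 of 3 libraries below sgNeg in each. In the order of the plots (both PRMT5 sgRNAs, then both WDR77 sgRNAs), the log2 fold changes were -1.27, -3.53, -4.02 and -2.82 for KRT5 (adjusted p of 1.22e-05, 1.07e-12, 5.92e-13 and 4.64e-11), -1.63, -3.65, -3.71 and -2.14 for KRT6A (0.00154, 3.97e-06, 4.21e-05 and 0.000183), and -0.49, -0.87, -0.98 and -0.66 for DSG3 (0.0307, 3e-05, 5.95e-05 and 0.00296). KRT17 rose in sgWDR77-2 (0.83, 2.65e-06) and SFN in sgPRMT5-1 (0.39, 0.0174), sgPRMT5-2 (0.45, 0.00068) and sgWDR77-2 (0.34, 0.0315), each in 3 of 3 libraries, while TP63, ITGA6 and EPCAM were not called against sgNeg. In sgPRMT5-1, DSG3 was not called without sgNeg replicate 2 or 3 or sgPRMT5-1 replicate 2 or 3 (0.0709 to 0.145), and SFN was not called there without sgNeg replicate 2 or sgPRMT5-1 replicate 2 or 3 (0.104 to 0.16), nor in sgWDR77-2 without sgNeg replicate 1 or 2, sgPRMT5-2 replicate 2 or sgWDR77-2 replicate 1, 2 or 3 (0.0513 to 0.191). The 6 fibroblast markers summed to 6.68 to 16.2 CPM, nearly all of it COL1A1, with COL1A2 at 0 in every library, the 7 immune and endothelial markers summed to 12.7 to 36.1 CPM, most of it CDH5, with CD3E at 0 and PTPRC at 0 to 1 count, and the 4 melanocyte markers to 2.55 to 7.48 CPM, with TYR and DCT at 0. CDH5 was higher in sgWDR77-1 than in sgNeg (0.80, 0.00325) and lower in sgWDR77-2 than in sgWDR77-1 (-0.85, 0.012), in 3 of 3 libraries each time, the latter not called with the comparison's own libraries (0.0618). In sgPRMT5-2, VWF (-2.28, 0.00389, at 1 to 21 counts per library) and PMEL (-1.41, 0.0162) were lower in 3 of 3 libraries and COL1A1 (-0.65, 0.0477) in 2 of 3. PMEL was not called without sgNeg replicate 1 or sgPRMT5-2 replicate 2 (0.0531 to 0.122), nor COL1A1 without sgNeg replicate 1 or 2, sgPRMT5-1 replicate 3, sgPRMT5-2 replicate 1 or 2, sgWDR77-1 replicate 2 or sgWDR77-2 replicate 3 (0.0513 to 0.19), and over all 24 alternatives the call was kept in 17 for DSG3 and 20 for SFN in sgPRMT5-1, and in 13 for COL1A1.

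Between knockout conditions, from sgPRMT5-1 to sgPRMT5-2, KRT5 (-2.26, 1.17e-08) and KRT6A (-2.02, 0.0136) were lower in 3 of 3 libraries, with KRT6A not called without sgPRMT5-1 replicate 1 or sgPRMT5-2 replicate 1 (0.0747 to 0.0993). From sgWDR77-1 to sgWDR77-2, KRT5 (1.19, 0.00175), KRT17 (0.83, 1.59e-05) and SFN (0.34, 0.0467) were higher in 3 of 3 libraries. KRT5 there was not called with no filter (0.0641), and SFN was called in 5 of 24 alternatives and lost without sgNeg replicate 1 or 3, sgPRMT5-1 replicate 1 or 2, sgWDR77-1 replicate 2 or 3, or any library of sgPRMT5-2 or sgWDR77-2 (0.053 to 0.24). In the PRMT5 against the WDR77 conditions, KRT5 (1.02, 3.45e-06) and SFN (0.25, 0.0053) were higher, with 3 and 2 of 6 libraries above all WDR77 libraries. Lower were KRT17 (-0.44, 3.35e-05), CDH5 (-0.56, 0.0021), VWF (-1.41, 0.0107) and PMEL (-0.92, 0.0252), with 2, 4, 5 and 2 of 6 libraries below, and PMEL was not called without sgPRMT5-1 replicate 2, sgPRMT5-2 replicate 2 or sgWDR77-2 replicate 2 (0.0545 to 0.101). The part of these marker changes in the values of the members was not tested for any comparison.

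Levels were compared between members per length, as CPM per kilobase of the MANE transcript, in sgNeg. GDF15 was the highest at 96.8 ± 15.5 (SD, n = 3), ahead of RRM2B at 29.9 ± 1.77, MDM2 at 19 ± 1.26 and FAS at 10.2 ± 1.95. The ranges of these neighbours over the 3 libraries did not overlap. BTG2 followed at 5.78 ± 0.173, MDM4 at 4.45 ± 1.39, TP53I3 at 3.34 ± 0.636, SESN1 at 3.15 ± 0.389 and ZMAT3 at 2.63 ± 0.596 (SD, n = 3 each). From BTG2 down, each gene overlapped its neighbour in the order, so their order is not settled by these libraries. Over all 15 libraries the order of the mean levels per kilobase was the same, from 127 for GDF15 to 2.47 for ZMAT3.

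**Figure D1:**
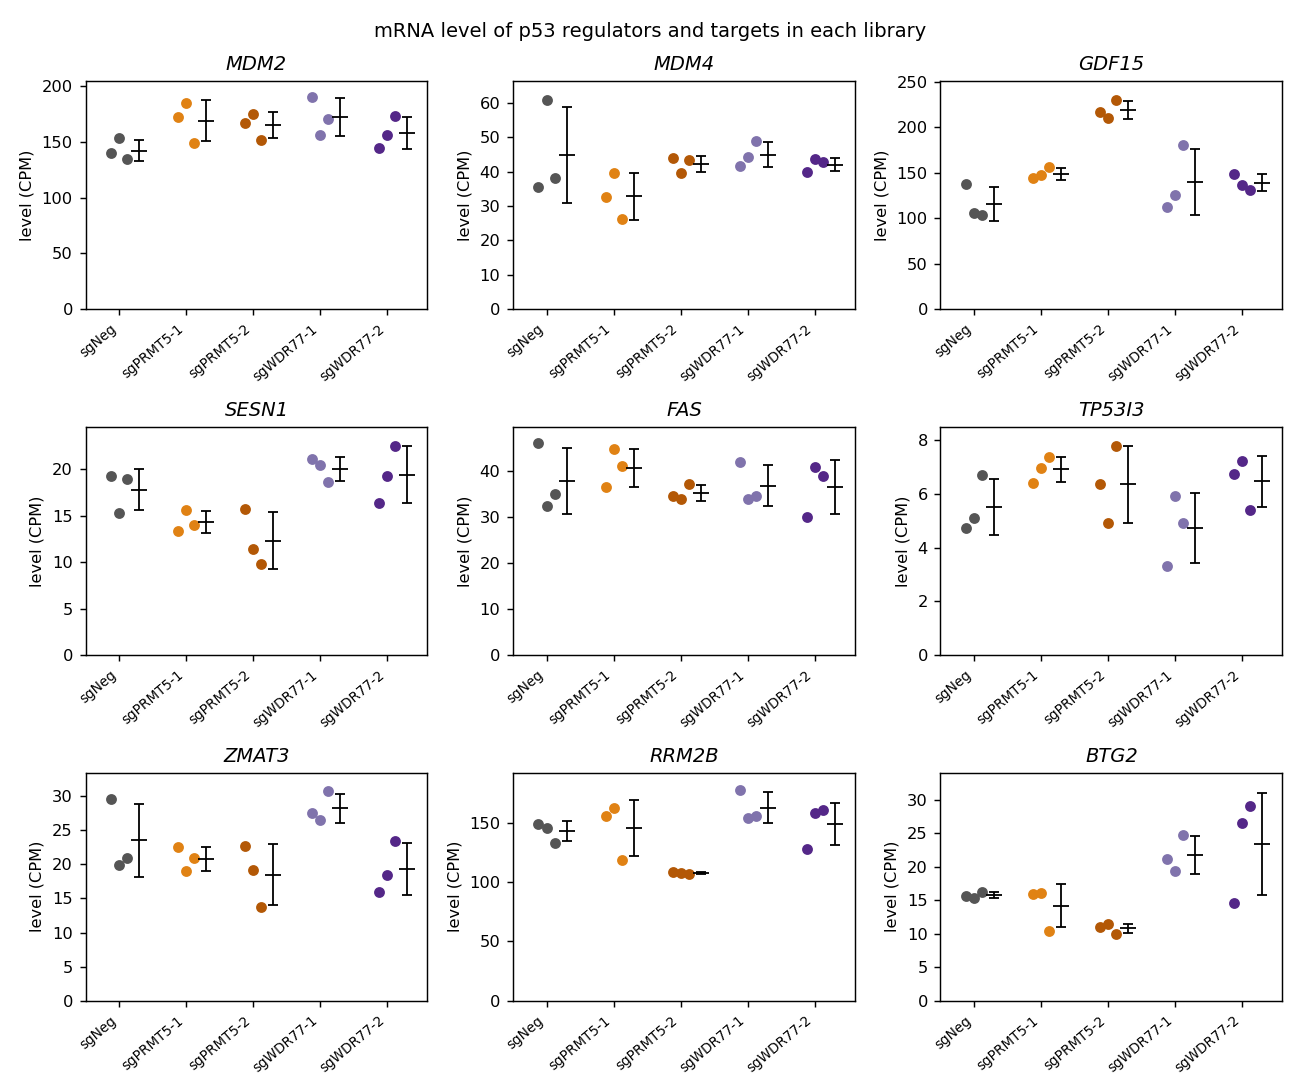
Level of each member in CPM (vertical axes, each from 0) in the 15 libraries, grouped by condition on the horizontal axes, with a point for each library and a black mark for the mean with its SD. GDF15 is highest in sgPRMT5-2 at 210 to 230 CPM, while RRM2B at 107 to 109 CPM and BTG2 at 9.98 to 11.4 CPM lie below all sgNeg libraries there.

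Across the 5 conditions, the F test of limma called 5 of the 9 members, against 35.8% of all tested genes. These were GDF15 (adjusted p = 0.000188), BTG2 (0.00264), RRM2B (0.00396), SESN1 (0.00902) and ZMAT3 (0.0455). The largest of their 4 log2 fold changes against sgNeg were 0.92, -0.54, -0.40, -0.54 and -0.34, with 3, 3, 3, 2 and 2 of 3 libraries below or above all sgNeg libraries. MDM2 (0.2), MDM4 (0.134), FAS (0.748) and TP53I3 (0.303) were not called. ZMAT3 was not called without sgPRMT5-1 replicate 2 (0.054), sgPRMT5-2 replicate 2 (0.0692) or 3 (0.0705), sgWDR77-1 replicate 2 (0.0659) or 3 (0.116), or sgWDR77-2 replicate 1 (0.0548) or 2 (0.068). MDM4 was called without sgNeg replicate 2 (0.0399). ZMAT3 was also not called with the replicate number as a block (0.0511), with limma-trend (0.0539), with quality weights (0.055) or with no filter (0.109), so it was called in 12 of 23 other settings, with adjusted p from 0.0224 to 0.116.

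Each sgRNA was then compared with sgNeg, which asks how the members stand in each knockout condition, and the 4 comparisons share the sgNeg libraries. In sgPRMT5-1, 0 of 9 members were called by limma voom, with 3 at an unadjusted p under 0.05 as had 17.5% of all tested genes, while 2.87% of all tested genes were called, 1.26% higher and 1.61% lower. In sgPRMT5-2, 3 of 9 were called, GDF15 higher and SESN1 and RRM2B lower, with 4 at an unadjusted p under 0.05 (41.8% of all genes). The background there was 31% of all genes, 16.3% higher and 14.7% lower, so the share of members called was near it. In sgWDR77-1, 0 of 9 were called by limma voom and 2 had an unadjusted p under 0.05 (23.9% of all genes), at a background of 9.48%, or 3.58% higher and 5.9% lower. In sgWDR77-2 the same counts were 0 and 1 (19.6% of all genes), at a background of 4.8%, or 1.81% higher and 2.98% lower. Without sgWDR77-1 replicate 1, GDF15 was called in sgWDR77-1 (log2 fold change 0.40, adjusted p = 0.0471, but 0.04 and 0.858 without replicate 3), and without sgWDR77-2 replicate 1, BTG2 was called in sgWDR77-2 (0.79, 0.0117). In the same order, the median log2 fold changes of the members were 0.02, -0.09, 0.19 and 0.12, beside 0.02, 0.01, -0.01 and 0.02 over all tested genes.

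**Figure D2:**
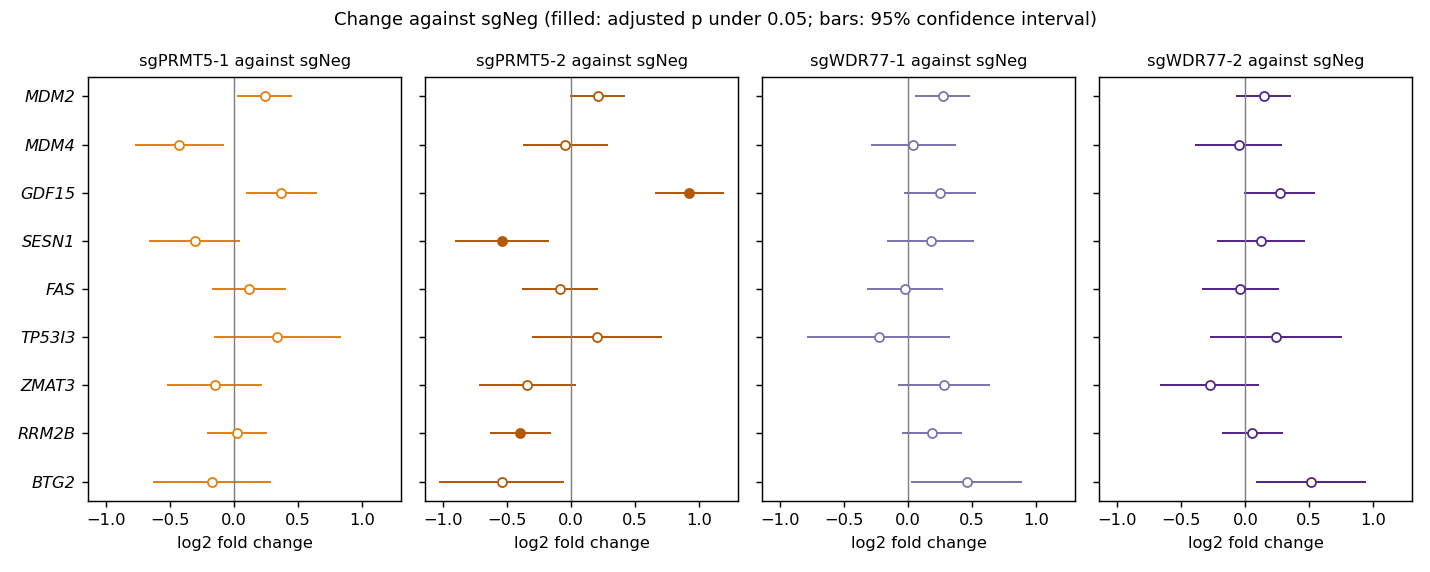
Log2 fold change of each member against sgNeg (horizontal axes) in the 4 knockout conditions (panels), with 95% confidence intervals as lines and filled points where the adjusted p is under 0.05. The filled points are GDF15 at 0.92, SESN1 at -0.54 and RRM2B at -0.40, all in sgPRMT5-2.

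MDM2 (ENSG00000135679.26, GRCh38 chr12:68808177-68845544, plus strand) encodes the ubiquitin ligase of p53 and its promoter stretch with pairs of half-sites is printed above. It stood at 140, 153 and 135 CPM in sgNeg, at 172, 185 and 149 CPM in sgPRMT5-1, and at 167, 175 and 152 CPM in sgPRMT5-2. The WDR77 sgRNAs gave 190, 156 and 170 CPM in sgWDR77-1 and 144, 156 and 173 CPM in sgWDR77-2. Only sgWDR77-1 lay wholly above sgNeg, and the other 3 conditions overlapped it. In the order above the log2 fold changes were 0.24, 0.21, 0.27 and 0.14, and none was called by limma voom (adjusted p of 0.235, 0.135, 0.112 and 0.489). With the comparison's own libraries, MDM2 was called in sgPRMT5-2 (0.20, 0.0425). At 0.27 the change in sgWDR77-1 had a 95% confidence interval of 0.05 to 0.48.

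MDM4 (ENSG00000198625.13, GRCh38 chr1:204516379-204558120, plus strand) encodes the partner of MDM2 that restrains p53 without degrading it. Counts per gene cannot resolve its exon skipping, so the values below add up all its transcripts. It stood at 35.4, 60.8 and 38.1 CPM in sgNeg, at 32.5, 39.7 and 26.2 CPM in sgPRMT5-1, and at 43.8, 39.6 and 43.3 CPM in sgPRMT5-2. In sgWDR77-1 the values were 41.7, 44.1 and 48.9 CPM, and in sgWDR77-2 they were 39.9, 43.5 and 42.7 CPM. The spread was widest within sgNeg, where replicate 2 exceeded every other library, and all conditions overlapped sgNeg. The log2 fold changes were -0.43, -0.05, 0.04 and -0.05 in the order above, with adjusted p of 0.182, 0.862, 0.915 and 0.902, and none was called. For sgPRMT5-1 the 95% confidence interval ran from -0.77 to -0.08, but without sgNeg replicate 2 the MDM4 value was -0.20 (adjusted p = 0.628), and with the share of reads outside genes in the model it was -0.21 (0.542).

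GDF15 (ENSG00000130513.6, GRCh38 chr19:18374731-18389176, plus strand) encodes a secreted cytokine of the stress response. It stood at 138, 106 and 104 CPM in sgNeg, at 144, 147 and 156 CPM in sgPRMT5-1, and at 217, 210 and 230 CPM in sgPRMT5-2. Both PRMT5 conditions lay above all sgNeg libraries, and sgPRMT5-2 lay above every other library of the series. In sgWDR77-1 the values were 112, 126 and 181 CPM, and in sgWDR77-2 they were 149, 136 and 131 CPM, with both groups overlapping sgNeg. GDF15 rose in sgPRMT5-2, with 0.92 as its log2 fold change, a 1.9-fold change (95% confidence interval 0.65 to 1.20 on the log2 scale, adjusted p = 2.09e-05, 3 of 3 libraries above all sgNeg libraries). This call was made under each of the 24 other settings. In sgPRMT5-1 the log2 fold change was 0.37 and was not called (adjusted p = 0.147), although 3 of 3 libraries were above sgNeg. The WDR77 sgRNAs gave 0.25 and 0.27 (adjusted p of 0.276 and 0.28), and the value in sgWDR77-1 was 0.40 (0.0471) without its replicate 1 and 0.04 (0.858) without its replicate 3, the high library at 181 CPM. Without sgNeg replicate 3 it was 0.15 (0.654).

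SESN1 (ENSG00000080546.13, GRCh38 chr6:108984309-109094846, minus strand) encodes a sestrin, a stress protein that restrains growth signalling through mTORC1, and its promoter stretch is printed above. It stood at 19.3, 15.3 and 18.9 CPM in sgNeg, at 13.3, 15.6 and 14 CPM in sgPRMT5-1, and at 15.7, 11.4 and 9.81 CPM in sgPRMT5-2. In sgWDR77-1 the values were 21.1, 20.4 and 18.6 CPM, and in sgWDR77-2 they were 16.4, 19.3 and 22.5 CPM. The PRMT5 conditions were the low ones, but each overlapped sgNeg, whose replicate 2 was low. SESN1 fell in sgPRMT5-2, with -0.54 as its log2 fold change (adjusted p = 0.0247, 2 of 3 libraries below all sgNeg libraries). That call was lost without sgNeg replicate 1 (-0.50, 0.0754), sgNeg replicate 3 (-0.53, 0.0524), sgPRMT5-2 replicate 2 (-0.52, 0.0699) or sgPRMT5-2 replicate 3 (-0.42, 0.113). It was also lost with no filter (-0.54, 0.0519). The other 3 conditions gave -0.31, 0.18 and 0.12 (adjusted p of 0.36, 0.559 and 0.744), none of them called.

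RRM2B (ENSG00000048392.12, GRCh38 chr8:102204502-102238961, minus strand) encodes the p53-inducible subunit of ribonucleotide reductase, which makes building blocks for DNA repair. It stood at 149, 146 and 133 CPM in sgNeg, at 156, 163 and 119 CPM in sgPRMT5-1, and at 109, 108 and 107 CPM in sgPRMT5-2. The 3 libraries of sgPRMT5-2 were the lowest of the 15. In sgWDR77-1 the values were 178, 154 and 156 CPM, all above sgNeg, and in sgWDR77-2 they were 128, 158 and 161 CPM, which overlapped it. RRM2B fell in sgPRMT5-2, with -0.40 as its log2 fold change (adjusted p = 0.0111, 3 of 3 libraries below all sgNeg libraries), and it was called under each of the 24 other settings. The log2 fold changes in sgPRMT5-1, sgWDR77-1 and sgWDR77-2 were 0.02, 0.19 and 0.06 and were not called (adjusted p of 0.936, 0.329 and 0.842).

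BTG2 (ENSG00000159388.6, GRCh38 chr1:203305491-203309602, plus strand) encodes an antiproliferative protein that also speeds the removal of mRNA tails. It stood at 15.6, 15.4 and 16.3 CPM in sgNeg, at 16, 16.1 and 10.4 CPM in sgPRMT5-1, and at 11, 11.4 and 9.98 CPM in sgPRMT5-2. In sgWDR77-1 the values were 21.2, 19.3 and 24.8 CPM, and in sgWDR77-2 they were 14.6, 26.5 and 29 CPM. All libraries of sgPRMT5-2 were below sgNeg and all of sgWDR77-1 above it, while replicate 1 of sgWDR77-2 stood apart from its other replicates, below sgNeg. No comparison with sgNeg was called, with log2 fold changes of -0.17, -0.54, 0.46 and 0.52 and adjusted p of 0.745, 0.0833, 0.186 and 0.166 in the order above. Without replicate 1 of sgWDR77-2, both sgPRMT5-2 (-0.56, 0.0202) and sgWDR77-2 (0.79, 0.0117) were called. Over the 24 other settings the adjusted p in sgPRMT5-2 ranged from 0.00677 to 0.174.

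FAS (ENSG00000026103.22, GRCh38 chr10:88953813-89029605, plus strand) encodes a death receptor at the cell surface, and its promoter stretch is printed above. It stood at 46.1, 32.5 and 35 CPM in sgNeg, at 36.5, 44.8 and 41.1 CPM in sgPRMT5-1, and at 34.7, 34 and 37.2 CPM in sgPRMT5-2. For the WDR77 sgRNAs the values were 42.1, 34.1 and 34.7 CPM in sgWDR77-1 and 30, 41 and 38.9 CPM in sgWDR77-2. The highest library was in sgNeg, and all 4 knockout conditions overlapped it. The log2 fold changes were 0.12, -0.09, -0.03 and -0.04 in the order above and none was called (adjusted p of 0.724, 0.683, 0.942 and 0.917).

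TP53I3 (ENSG00000115129.14, GRCh38 chr2:24077433-24085861, minus strand) encodes an oxidoreductase that was found as a gene induced by p53 before cell death. It stood at 4.74, 5.09 and 6.71 CPM in sgNeg, at 6.42, 6.96 and 7.36 CPM in sgPRMT5-1, and at 6.37, 4.93 and 7.78 CPM in sgPRMT5-2. The WDR77 conditions held 3.33, 5.92 and 4.93 CPM in sgWDR77-1 and 6.74, 7.24 and 5.4 CPM in sgWDR77-2. Every condition overlapped sgNeg, and the spread within conditions was wide at these low counts. The log2 fold changes of 0.34, 0.20, -0.23 and 0.24 were not called (adjusted p of 0.497, 0.564, 0.649 and 0.657).

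ZMAT3 (ENSG00000172667.11, GRCh38 chr3:178960121-179072215, minus strand) encodes a zinc finger protein that binds RNA. It stood at 29.6, 19.9 and 21 CPM in sgNeg, at 22.6, 19 and 20.9 CPM in sgPRMT5-1, and at 22.7, 19.2 and 13.7 CPM in sgPRMT5-2. The WDR77 conditions gave 27.5, 26.5 and 30.7 CPM in sgWDR77-1 and 16, 18.4 and 23.4 CPM in sgWDR77-2, and these groups did not overlap each other although both overlapped sgNeg. Against sgNeg its log2 fold changes were -0.15, -0.34, 0.28 and -0.28 and none was called (adjusted p of 0.714, 0.161, 0.339 and 0.442).

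The sgRNAs of a gene were next compared with each other, which asks how far the members depend on the sgRNA. Between sgPRMT5-2 and sgPRMT5-1, 2 of 9 members were called, 1 higher and 1 lower, against 7.54% of all tested genes, 3.56% higher and 3.98% lower, and 3 had an unadjusted p under 0.05 (23.9% of all genes). This background is not stable, since the 1060 genes called became 338 to 1980 without a library in turn. They became 2562 with quality weights and 2689 with the comparison's own libraries. GDF15 was higher in sgPRMT5-2 (log2 difference 0.56, adjusted p = 0.0106) and RRM2B lower (-0.42, 0.0258), each with 3 of 3 libraries beyond all of sgPRMT5-1. The call of GDF15 was lost without sgPRMT5-1 replicate 1 (0.071) or sgPRMT5-2 replicate 3 (0.0627). That of RRM2B was lost without sgPRMT5-1 replicate 1 (0.142) or 2 (0.154) and without sgPRMT5-2 replicate 1 (0.0861), 2 (0.0916) or 3 (0.0825). The count was thus 0 without sgPRMT5-1 replicate 1 or sgPRMT5-2 replicate 3, and 1 without sgPRMT5-1 replicate 2 or sgPRMT5-2 replicate 1 or 2. MDM4, whose mean was lowest in sgPRMT5-1, differed by 0.38 and was not called (adjusted p = 0.162), but it was called with the comparison's own libraries (0.39, 0.0329). Between sgWDR77-2 and sgWDR77-1, limma voom called 0 of 9 members and 1 had an unadjusted p under 0.05 (18.9% of all genes), against 2.41% of all genes called, 1.84% higher and 0.569% lower. That member was ZMAT3, lower in sgWDR77-2 by a log2 difference of -0.56 with no overlap (adjusted p = 0.098).

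The PRMT5 sgRNAs were compared directly with the WDR77 sgRNAs, where sgNeg enters through the shared fit but not the difference, to ask whether the members differ between knockouts of the enzyme and of its partner. Here 4 of 9 members were called, 1 higher and 3 lower in the PRMT5 conditions, against 27.1% of all tested genes, 15.7% higher and 11.4% lower. At an unadjusted p under 0.05 there were also 4, beside 38.5% of all genes, so that share of members was near the background. The count of called members was 4 under each of the 24 other settings. BTG2 was lower by a log2 difference of -0.84 (95% confidence interval -1.17 to -0.52, adjusted p = 0.000414), with 4 of 6 PRMT5 libraries below all 6 WDR77 libraries. SESN1 was lower by -0.57 (adjusted p = 0.00163), and its 6 PRMT5 libraries at 9.81 to 15.7 CPM lay below all 6 WDR77 libraries at 16.4 to 22.5 CPM. RRM2B was lower by -0.31 (0.0069, 4 of 6 libraries below all WDR77 libraries) and GDF15 higher by 0.39 (0.0038, 3 of 6 libraries above), and for both the groups overlapped. For RRM2B and BTG2 the libraries below the WDR77 range were the 3 of sgPRMT5-2 and sgPRMT5-1 replicate 3, while sgPRMT5-1 replicates 1 and 2 lay inside it. For GDF15 the libraries above were the 3 of sgPRMT5-2, and those of sgPRMT5-1 lay inside. MDM2 did not separate the knockouts, with a difference of 0.02 (95% confidence interval -0.13 to 0.17), and neither did FAS, at 0.05 (-0.16 to 0.26). MDM4, TP53I3 and ZMAT3 differed by -0.23, 0.27 and -0.25 and were not called (adjusted p of 0.15, 0.273 and 0.162).

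**Figure D3:**
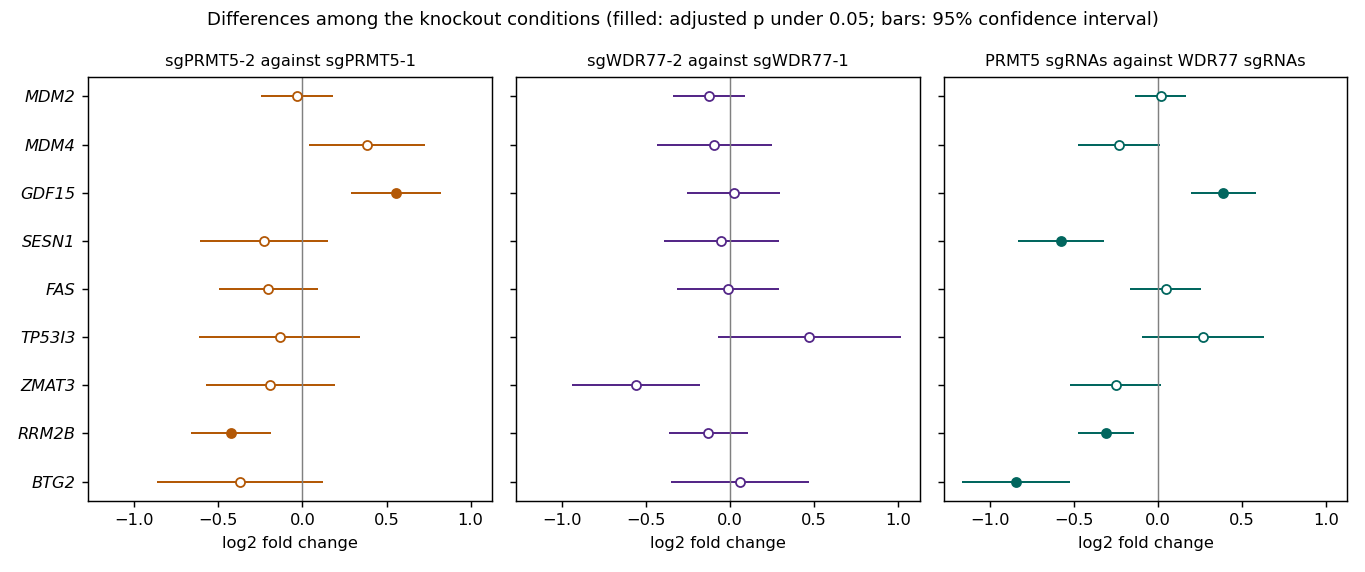
Log2 difference of each member (horizontal axes) between the PRMT5 sgRNAs, between the WDR77 sgRNAs, and between the PRMT5 and WDR77 sgRNAs (panels), with 95% confidence intervals as lines and filled points where the adjusted p is under 0.05. In the last comparison BTG2 at -0.84, SESN1 at -0.57, RRM2B at -0.31 and GDF15 at 0.39 are filled, while MDM2 lies at 0.02.

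The members were set beside a list of 29 other direct targets of p53, of which 28 were tested. In both PRMT5 and then both WDR77 conditions, by sgRNA number, 1, 13, 3 and 2 of these were called higher and 0, 4, 1 and 1 lower by limma voom, against backgrounds of 1.26%, 16.3%, 3.58% and 1.81% higher and 1.61%, 14.7%, 5.9% and 2.98% lower. At an unadjusted p under 0.05 there were 12, 21, 12 and 11, against 17.5%, 41.8%, 23.9% and 19.6% of all genes. Their median log2 fold changes were 0.22, 0.27, 0.15 and 0.17, beside the 0.02, -0.09, 0.19 and 0.12 of the members. Without sgWDR77-1 replicate 1, the number higher was 4 in sgPRMT5-1 and 6 in sgWDR77-1, and without sgNeg replicate 3 it was 1 in sgWDR77-1. With quality weights the number higher was 3 in sgPRMT5-1, and the number lower was 7 in sgPRMT5-2 and 0 in sgWDR77-1, as it was there with the comparison's own libraries. The number lower in sgWDR77-1 was 2 without sgNeg replicate 2, sgWDR77-1 replicate 1 or 3, or sgWDR77-2 replicate 1, and in sgWDR77-2 it was 0 without sgNeg replicate 1 or sgWDR77-2 replicate 1 or 2. GADD45A, which slows the cell cycle after DNA damage, was the gene of the list called higher in all 4 conditions, with log2 fold changes of 0.91, 1.65, 0.74 and 1.00 (adjusted p of 8.99e-05, 1.21e-09, 0.000409 and 1.05e-05) and 3 of 3 libraries above sgNeg in each. It stood at 39.1, 51.3 and 55.5 CPM in sgNeg and at 149 to 153 CPM in sgPRMT5-2, and its rise there was larger than that of any member. CDKN1A, a p53 target outside this list that is best known for arresting the cell cycle, had log2 fold changes of 0.58, 1.60, -0.21 and 0.23 (adjusted p of 0.0888, 6.13e-07, 0.557 and 0.55). It was thus called in sgPRMT5-2 alone, with 3 of 3 libraries above sgNeg, where SESN1 and RRM2B fell, and it was also called in sgPRMT5-1 without sgWDR77-1 replicate 1 or 3, with quality weights and with the comparison's own libraries (0.0217 to 0.473 over the 24 alternatives). These are mRNA values, while for p21, the protein of CDKN1A, the paper reports a rise after depletion of either PRMT5 or WDR77.

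**Figure D4:**
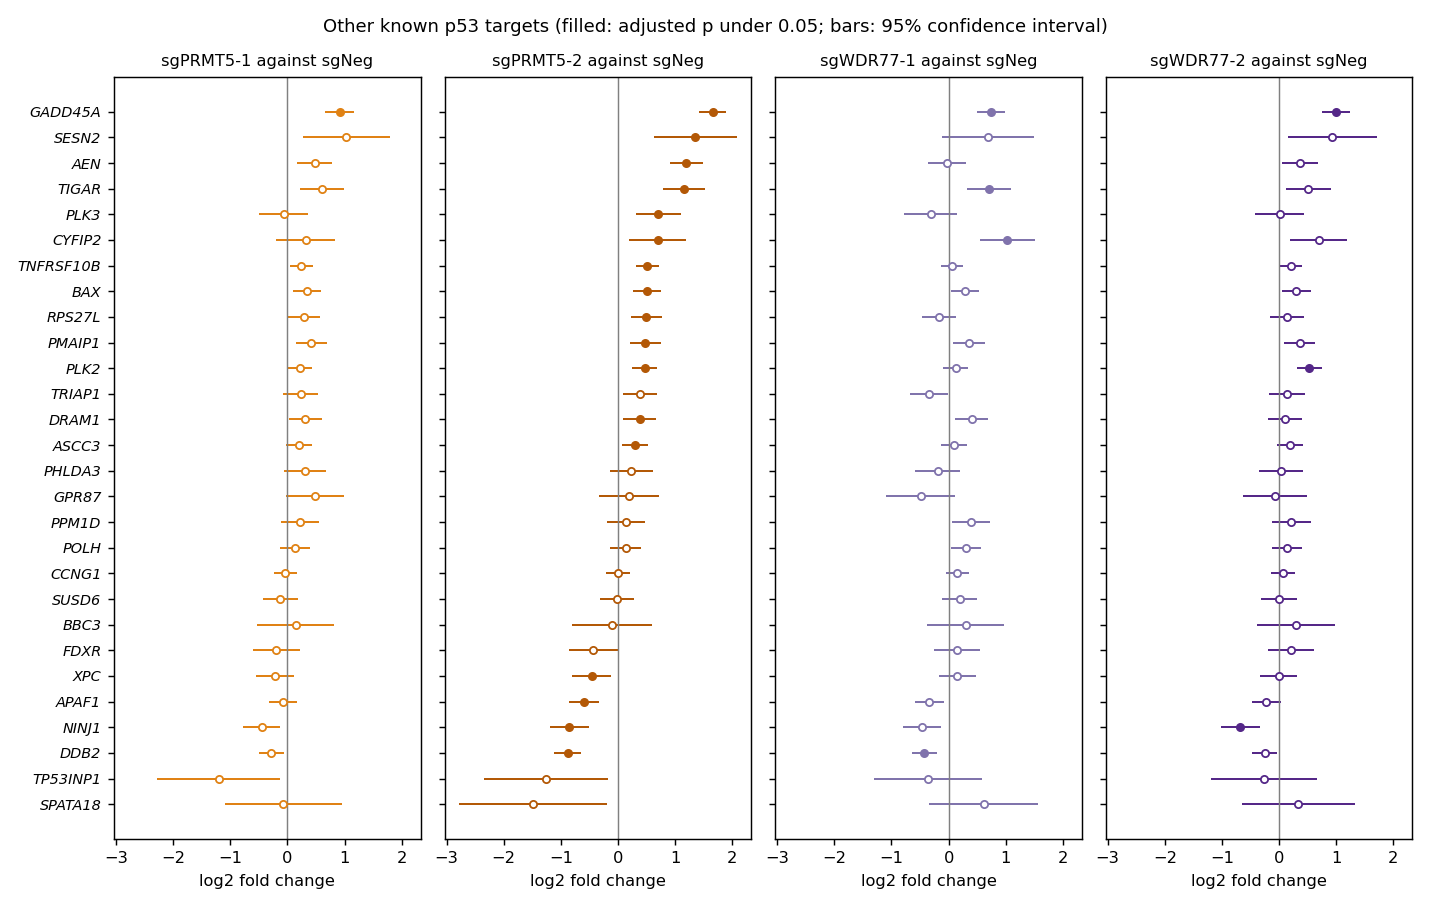
Log2 fold change against sgNeg of the 28 tested p53 targets outside the members (horizontal axes) in the 4 knockout conditions (panels), with 95% confidence intervals as lines and filled points where the adjusted p is under 0.05. GADD45A is filled in all 4 conditions, and sgPRMT5-2 has 13 filled points above 0 and 4 below.

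Within the list of 29, those higher in sgPRMT5-2 with the smallest adjusted p after GADD45A were AEN (1.20, 2.28e-06), TIGAR (1.16, 4.41e-05) and TNFRSF10B (0.51, 0.000315), a death receptor like FAS. Those lower were DDB2 (-0.88, 4.91e-06), NINJ1 (-0.85, 0.00052), APAF1 (-0.60, 0.000976) and XPC (-0.46, 0.0376), of which DDB2 and XPC recognize DNA damage. All of these had 3 of 3 libraries beyond sgNeg, and XPC was not called without sgNeg replicate 1 or 2 or sgPRMT5-2 replicate 1 or 2 (adjusted p of 0.0518 to 0.174). In sgWDR77-1, CYFIP2 (1.03, 0.0071) and TIGAR (0.71, 0.0196) were higher and DDB2 lower (-0.42, 0.0165), and in sgWDR77-2 PLK2 was higher (0.52, 0.00419) and NINJ1 lower (-0.68, 0.017), each in 3 of 3 libraries. CYFIP2 was not called without sgNeg replicate 3 (0.0595), TIGAR without sgNeg replicate 1 or 3 or sgWDR77-1 replicate 2 (0.0565 to 0.106), and NINJ1 without sgNeg replicate 1 or sgWDR77-2 replicate 1 or 2 (0.0536 to 0.107). DDB2 in sgWDR77-1 was not called with quality weights (0.0724) or with the comparison's own libraries (0.106), and its adjusted p over all alternatives was 0.00849 to 0.106. Over all 24 alternatives XPC was kept in 19, and in sgWDR77-1 CYFIP2 in 23, TIGAR in 19 and DDB2 in 22. As among the members, sgPRMT5-2 had calls in both directions, but the split was not alike. Of the 28 tested targets 13 were higher and 4 lower, and of the 9 members 1 was higher and 2 lower. Of all tested genes, 16.3% were higher and 14.7% lower.

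Of 15 genes that modify p53 or its stability, as MDM2 and MDM4 do, limma voom called 0 in sgPRMT5-1, where 0 had an unadjusted p under 0.05 (17.5% of all genes) and the background was 2.87%. In sgPRMT5-2, at a background of 31%, EP300 (0.41, 0.00814), USP10 (0.28, 0.0236), USP7 (0.31, 0.038) and SIRT1 (0.32, 0.0414) were called higher, each in 3 of 3 libraries, and 0 lower. The number higher was 0 without sgNeg replicate 1 or sgPRMT5-2 replicate 1, 1 without sgNeg replicate 2 or sgPRMT5-2 replicate 3, and 2 without sgNeg replicate 3, sgPRMT5-1 replicate 1 or 2, sgPRMT5-2 replicate 2, or sgWDR77-2 replicate 2 or 3, and with library totals alone it was 1. The number lower was 1 without sgNeg replicate 1 or 3, sgPRMT5-1 replicate 1 or 3, sgPRMT5-2 replicate 1, or any library of sgWDR77-1 or sgWDR77-2, and 1 to 2 in 5 of the other alternatives. In the WDR77 conditions 2 of 15 were called in each, at backgrounds of 9.48% and 4.8%. RPL5, a ribosomal protein that binds MDM2, was lower in sgWDR77-1 (-0.32, 0.00884) and in sgWDR77-2 (-0.28, 0.0263), in 3 of 3 libraries of each, and in sgWDR77-2 the call was lost without sgNeg replicate 1 (0.0845) or sgWDR77-2 replicate 1 (0.0543). COP1 was lower in sgWDR77-1 (-0.40, 0.0456, 3 of 3 libraries), which was lost without sgNeg replicate 2 or 3, sgPRMT5-1 replicate 1 or 2, sgPRMT5-2 replicate 1, 2 or 3, or sgWDR77-1 replicate 1 or 3 (0.0515 to 0.128). ATR was higher in sgWDR77-2 (0.30, 0.0458, 3 of 3 libraries), which was lost in each fit without a library of sgNeg, sgPRMT5-1 or sgPRMT5-2, and without sgWDR77-1 replicate 2 or sgWDR77-2 replicate 1 or 2 (0.0584 to 0.236). RPL5 was also lost in sgWDR77-1 with the comparison's own libraries (0.185) and in sgWDR77-2 with limma-trend. Over all 24 alternatives its calls were kept in 23 and 21, that of COP1 in 10, that of ATR in 7, and those of EP300, USP10, USP7 and SIRT1 in 22, 18, 13 and 10.

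Genes of the same families, partners of the members and CDKN1A formed a last list, 10 of 12 of which passed the filter, with SESN2 also among the 29 above. SESN2, the sestrin induced by p53 and by nutrient stress, stood at 3.56, 3.29 and 3.45 CPM in sgNeg and at 8.86, 10 and 7.95 CPM in sgPRMT5-2, where SESN1 fell. SESN2 rose there, with 1.36 as its log2 fold change (adjusted p = 0.00587, 3 of 3 libraries above sgNeg) and was not called at 1.03, 0.69 and 0.93 in sgPRMT5-1, sgWDR77-1 and sgWDR77-2 (0.137, 0.288 and 0.167). Without sgWDR77-1 replicate 1 it was called in these conditions too (0.0323, 0.0108 and 0.0456). SESN3 stood at 44.7, 36.5 and 43 CPM in sgNeg, at 26.9, 25.7 and 23 CPM in sgPRMT5-2, and at 89.6, 81.1 and 64 CPM in sgWDR77-1. It fell in sgPRMT5-2 (-0.71, 0.00662) and rose in sgWDR77-1 (0.91, 0.00118), each in 3 of 3 libraries, but was not called in sgPRMT5-1 (0.01, 0.984) at 33.4 to 50.1 CPM or in sgWDR77-2 (0.49, 0.0998), where it was called without sgWDR77-2 replicate 1 (0.0187). It was lower in the PRMT5 than in the WDR77 conditions by -1.05 (2.76e-06, 5 of 6 libraries below), as SESN1 was by -0.57, although sgPRMT5-1 replicate 1 lay within the WDR77 range.

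BTG3 rose in all 4 conditions, with log2 fold changes of 0.65, 0.89, 0.69 and 0.97 (adjusted p of 0.0172, 0.000103, 0.00551 and 0.000223) and 3 of 3 libraries above sgNeg in each, while BTG2 was called in none and BTG1 in none. In sgPRMT5-1 the call of BTG3 was lost without sgNeg replicate 2 or 3 or sgPRMT5-1 replicate 2 or 3 (0.0785 to 0.108). RRM2, the subunit for DNA replication that RRM2B replaces, was higher in sgPRMT5-2 (0.38, 0.0369), in 3 of 3 libraries and opposite to RRM2B. This call was lost in each fit without a library of sgNeg or sgPRMT5-2, and without sgPRMT5-1 replicate 1 or 2, or sgWDR77-2 replicate 2 (0.0511 to 0.152). RRM1, the large subunit that pairs with both, was lower in sgWDR77-1 (-0.35, 0.0323, 3 of 3 libraries), which was lost without sgNeg replicate 1 or 3, sgPRMT5-2 replicate 3 or sgWDR77-1 replicate 3 (0.05 to 0.114), with quality weights and with the comparison's own libraries (up to 0.203). Over all 24 alternatives the calls were kept in 19 for BTG3 in sgPRMT5-1, 13 for RRM2 in sgPRMT5-2 and 18 for RRM1 in sgWDR77-1. RRM1 was higher in the PRMT5 than in the WDR77 conditions (0.36, 0.000794), as was CDKN1A (1.08, 2.48e-06), each called in all 24 alternatives. For CDKN1A the sgRNAs of PRMT5 differed, at 53.3 to 78.6 CPM in sgPRMT5-1 and 125 to 147 CPM in sgPRMT5-2 (1.03, 0.000336). The WDR77 conditions held 26.2 to 54.6 and 47.2 to 58.9 CPM, so sgPRMT5-1 overlapped their range and sgPRMT5-2 lay above it. FADD and CASP8, through which FAS signals, were not called against sgNeg in any condition, nor was TP63. However, FADD in sgWDR77-1 (-0.37, 0.0658, 3 of 3 libraries below) was called in 4 of 24 alternatives, namely with the replicate block and without sgNeg replicate 2 (0.0231), sgPRMT5-1 replicate 3 or sgWDR77-2 replicate 1. It was higher in the PRMT5 than in the WDR77 conditions (0.32, 0.0104, 5 of 6 libraries above), a call lost without sgPRMT5-2 replicate 3 (0.052). FASLG and GFRAL, the partners of FAS and GDF15 at the cell surface, had 0 counts in every library and so did not pass the filter.

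**Figure D5:**
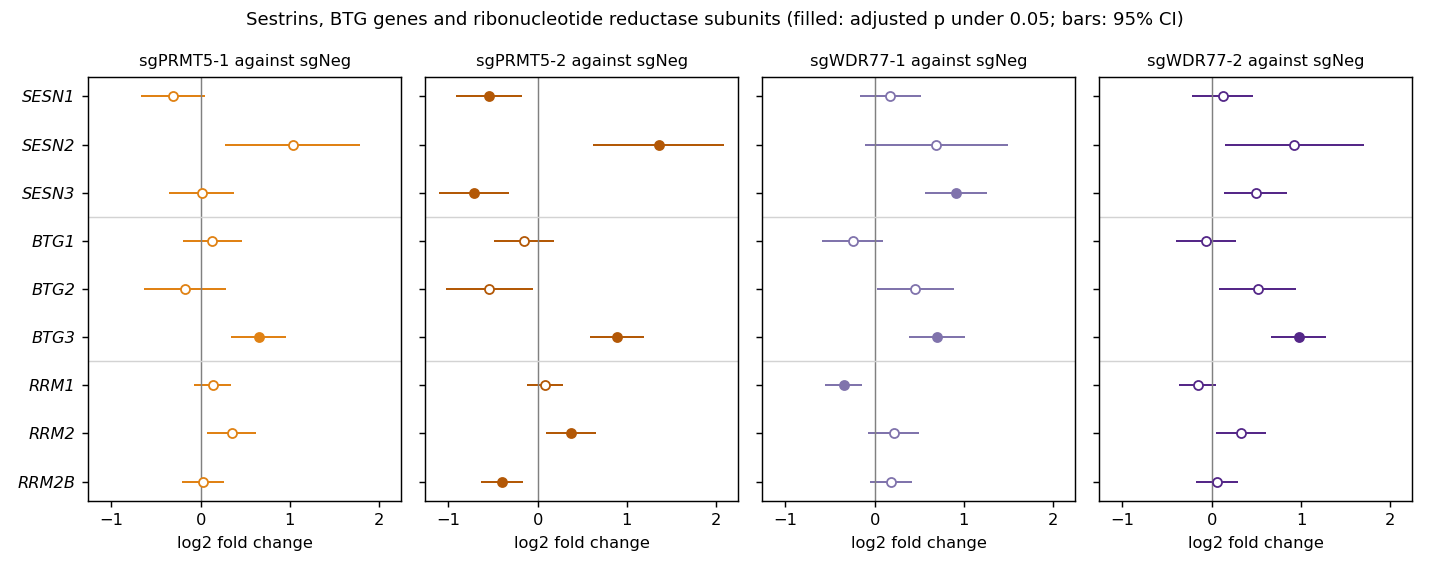
Log2 fold change against sgNeg (horizontal axes) of the sestrins, the BTG genes and the ribonucleotide reductase subunits in the 4 knockout conditions (panels), with 95% confidence intervals as lines and filled points where the adjusted p is under 0.05. In sgPRMT5-2, SESN1 at -0.54 and SESN3 at -0.71 are filled below 0 and SESN2 at 1.36 above, while BTG3 is filled above 0 in all 4 conditions.

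The genes most like each member were found by Pearson's r of log2 CPM over the 15 libraries among 11833 genes, as a description, since the libraries share conditions. For GDF15 they were RELB (0.954), IL23A (0.949) and TNFSF15 (0.941), for RRM2B CDKN1B (0.967), SUCLG2 (0.966) and PJA2 (0.964), and for BTG2 NCOA7 (0.955) and CYP4F11 (0.954). SESN1 was most like EXOC6 (0.909), HSPA2 (0.89) and DOCK11 (0.884), MDM2 like SLC7A11 (0.9), YAP1 (0.872) and ARAP2 (0.866), and MDM4 like GABPB1-AS1 (0.898), CCNL1 (0.851) and MT-RNR2 (0.847). Without sgNeg replicate 2, which had the highest MDM4 level, GABPB1-AS1 stood at 0.846. For TP53I3 they were CTDNEP1 (0.862), ZNF419 (0.862) and POLA2 (0.86), for ZMAT3 RBMS3 (0.862), MAST3 (0.834) and CYP24A1 (0.826), and for FAS SMIM20 (0.837), YAF2 (0.828) and DAZAP2 (0.795). No member was among the 3 genes most like another member. With 3 places among 11833 genes, this does not tell whether the members vary together.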

How the data were processed

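Reads were aligned to hg38 by the authors (STAR) and counted with HTSeq. The deposited values, recorded as of unit other, are whole-number read counts per gene without normalization. The authors tested with DESeq2. Here limma voom (limma 3.58.1, R 4.3.3) was fitted to 15 libraries as 5 conditions, with 10 residual degrees of freedom, genes whose mean normalized count was 3 or more, and TMM factors with 0.3 of log ratios and 0.05 of mean levels trimmed. Limma's moderated tests were two-sided, with 7 comparisons and an F test, each adjusted by Benjamini-Hochberg over all genes tested, at 0.05. The members and lists were chosen with earlier results of these data known. Every member was named. Of other p53 targets and p53 modifiers, up to 4 called genes with the smallest adjusted p per direction and sgRNA were named, and all paralogs and partners could be. Likeness used log2 of CPM plus 0.5 for genes with a mean count of 10 or more, and 1 of the genes found is not reported here. Alternatives were RLE size factors, library totals alone, a minimum of 10 or no filter, a replicate block, limma-trend (prior count 2), quality weights, the comparison's own libraries, each library left out, and, added after the data were seen, a covariate (the percent of reads outside genes) and the looser motif search. Coordinates are from GENCODE. The functions were tested on simulated data.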

Additional observations from a re-analysis of the deposited data

Results flagged for a closer look

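The results here were picked out because a tested difference between conditions that do not include sgNeg passed the threshold in limma voom. Between the PRMT5 sgRNAs, GDF15 was higher by a log2 difference of 0.56 in sgPRMT5-2 (adjusted p = 0.0106) and RRM2B lower by -0.42 (0.0258), with 3 of 3 libraries beyond all of sgPRMT5-1. The GDF15 call was lost without sgPRMT5-1 replicate 1 (0.071) or sgPRMT5-2 replicate 3 (0.0627), and that of RRM2B without sgPRMT5-1 replicate 1 (0.142) or 2 (0.154) or sgPRMT5-2 replicate 1 (0.0861), 2 (0.0916) or 3 (0.0825). Between the PRMT5 and the WDR77 sgRNAs, GDF15 was higher by 0.39 (0.0038, 3 of 6 libraries above all WDR77 libraries), and SESN1 lower by -0.57 (0.00163, 6 of 6 below), RRM2B by -0.31 (0.0069, 4 of 6 below) and BTG2 by -0.84 (0.000414, 4 of 6 below). With 3 libraries a condition, no test of libraries that stand apart from their group was applied.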

How the results depend on the processing

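Over 24 alternatives, 15 of which left out a library, the 1512 values of the members had 12 calls lost, 7 gained and 0 reversed. For values called in neither fit, 60 changed sign. With quality weights, the genes called were 658 in sgPRMT5-1, 623 in sgWDR77-1, 2562 between the PRMT5 sgRNAs and 73 between the WDR77 sgRNAs. With the comparison's own libraries, they were 385 in sgWDR77-1, 2689 between the PRMT5 sgRNAs and 17 between the WDR77 sgRNAs. The same setting called 5 members in sgPRMT5-2. Genes called there were 4159 to 5769 over the alternatives other than the 15 that left out a library, against 4361 in the main fit. Between the WDR77 sgRNAs, 220 genes were called with library totals alone and 171 with the covariate. Without a library in turn, the genes called ranged from 116 to 859 in sgPRMT5-1, 677 to 1496 in sgWDR77-1, 393 to 1348 in sgWDR77-2, 338 to 1980 between the PRMT5 sgRNAs and 45 to 505 between the WDR77 sgRNAs. The members called ranged from 0 to 1 in sgWDR77-1, 0 to 1 in sgWDR77-2 and 0 to 2 between the PRMT5 sgRNAs. The cause was not tested. Library totals alone changed the genes called higher and lower from 177 and 227 to 98 and 263 in sgPRMT5-1, from 2296 and 2065 to 1644 and 2694 in sgPRMT5-2, from 259 and 80 to 132 and 88 between the WDR77 sgRNAs, and from 2205 and 1608 to 1505 and 2163 between the PRMT5 and WDR77 sgRNAs. SESN1 in sgPRMT5-2 was not called without the filter (adjusted p = 0.0519, 0.00864 to 0.113 over the alternatives). BTG2 there was called with quality weights (0.0286). With the comparison's own libraries, BTG2 (0.00677) and MDM2 (0.20, 0.0425) were called there, and MDM4 between the PRMT5 sgRNAs (0.39, 0.0329). With the replicate number as a block, the members called were 0, 3, 0 and 0 against sgNeg, 2 and 0 between sgRNAs, 4 between knockouts and 4 across the 5 conditions. The alternatives other than the 15 without a library include this block. Over them the genes called were 275 to 658, 4159 to 5769, 385 to 1348 and 592 to 896 against sgNeg. They were 934 to 2689 and 17 to 381 between sgRNAs, and 3372 to 3799 between knockouts. The number for the block alone is not given here. At 18 to 46 counts per library, TP53I3 had the lowest counts of the members.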
